A study of Mus musculus with 24 samples.

Results

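The genes described are 9 cell adhesion molecules of the contact between axons and glia, namely Ncam1, Ncam2, L1cam, Chl1, Cadm1, Cadm2, Cadm3, Cadm4 and Alcam. They were chosen by name, as the gene probes that the array annotation gives to these symbols. The 9 genes hold 25 of the 56605 gene probes on the array, and each was read through its probe of highest mean signal over the 24 arrays, with the other probes as a check. All 9 of these probes were well above background on every array and were among the 36409 probes tested.

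RNA came from nerve fibres of C57BL/6 mice of both sexes at the levels L4 to L6, with no mutation, transgene or treatment named in the labels. Efferent nerve fibres (EN, the ventral roots, axons of motor neurons) and afferent nerve fibres (AN, the dorsal roots, axons of sensory neurons) were taken on the day of birth (P0) and 1, 3 and 5 weeks later (1 W, 3 W, 5 W). Each of the 8 groups held 3 arrays with 1 Cyanine-3 labelled sample each, from fibres that were pooled over animals before extraction. Nothing ties an array to single animals, so the p values measure the spread between arrays of a group, which may in part be technical. AN replicate 3 of 3 W stood apart from the other 2 arrays of its group for L1cam, Alcam and the summed signal of sensory neuron markers. Several of the results that rest on it, but not all, are given with and without it.

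A nerve root holds axons and Schwann cells, and the cell bodies of its neurons lie elsewhere. NCAM proteins bind the same protein on the next membrane, and NCAM can carry polysialic acid, a sugar chain that loosens contact while axons grow. L1 and its relative CHL1 bind axons to each other and to Schwann cells, and NCAM and L1 are known to be kept on non-myelinating Schwann cells and lost from myelinating ones. The CADM proteins, also called nectin-like proteins or SynCAMs, join axon and Schwann cell along the myelinated internode, where CADM3 on the axon binds CADM4 on the Schwann cell. ALCAM binds itself and CD6 and guides growing axons into bundles.

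The sequences of 5 probes are given because they show what the arrays read. Each bears on a result below, and none is the brightest probe of its gene. In the Ncam1 probe at chr9:49351182-49351241 (mm9, minus strand), the capitals mark 17 of the 19 bases of the forward RT-qPCR primer designed for the study, so that this probe and that assay read the same stretch of the transcript.
Ncam1: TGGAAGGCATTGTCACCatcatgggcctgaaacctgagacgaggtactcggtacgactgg
The L1cam probe at chrX:71100374-71100433 (mm9, minus strand) ends on the stop codon, in capitals, and is the L1cam probe with the smallest difference between the nerves at 3 W and 5 W.
L1cam: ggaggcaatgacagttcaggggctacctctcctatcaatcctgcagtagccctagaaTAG
The Chl1 probe at chr6:103667565-103667624 (mm9, plus strand) is the second brightest of that gene and is printed without capitals.
Chl1: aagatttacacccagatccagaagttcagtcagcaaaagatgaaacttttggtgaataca
The last pair lies at the same place in relatives, at chr9:47658414-47658473 (mm9, plus strand) in Cadm1 and at chr16:66663338-66663397 (mm9, minus strand) in Cadm2. Both end on the stop codon, and the capitals mark the 45 of 60 bases (75%) that are identical.
Cadm1: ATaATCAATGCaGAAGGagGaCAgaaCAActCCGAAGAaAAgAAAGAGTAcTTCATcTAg
Cadm2: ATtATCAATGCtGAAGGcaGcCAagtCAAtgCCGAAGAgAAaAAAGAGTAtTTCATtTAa
In spite of this identity the pair gave differences of opposite sign between the nerves at P0, 0.74 for Cadm1 and -0.85 for Cadm2 (AN minus EN, log2), of which neither passed the test.

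By a direct test, the difference between the nerves changed from P0 to 5 W for 4 of the 9 genes (Ncam1, Chl1, Cadm1 and Cadm2), each towards AN. Of these calls, only that of Ncam1 held without any 1 array. Ncam1, L1cam, Chl1 and Cadm1 were up-regulated in AN relative to EN at each age after P0, by 1.78-fold to 4.95-fold, and Ncam2 and Cadm2 joined them at 5 W. In both nerves Ncam1, Ncam2, L1cam, Cadm1 and Alcam were lower at 5 W than at P0 and Cadm3 and Cadm4 were higher. Chl1 and Cadm2 were down-regulated from P0 to 5 W in EN, whereas their changes in AN did not pass the test. Values below are log2 normalised signal, differences are on the log2 scale with their standard error (SE), and a gene was called changed at an adjusted p below 0.05 from limma (Benjamini-Hochberg over all 36409 probes).

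**Figure D1:**
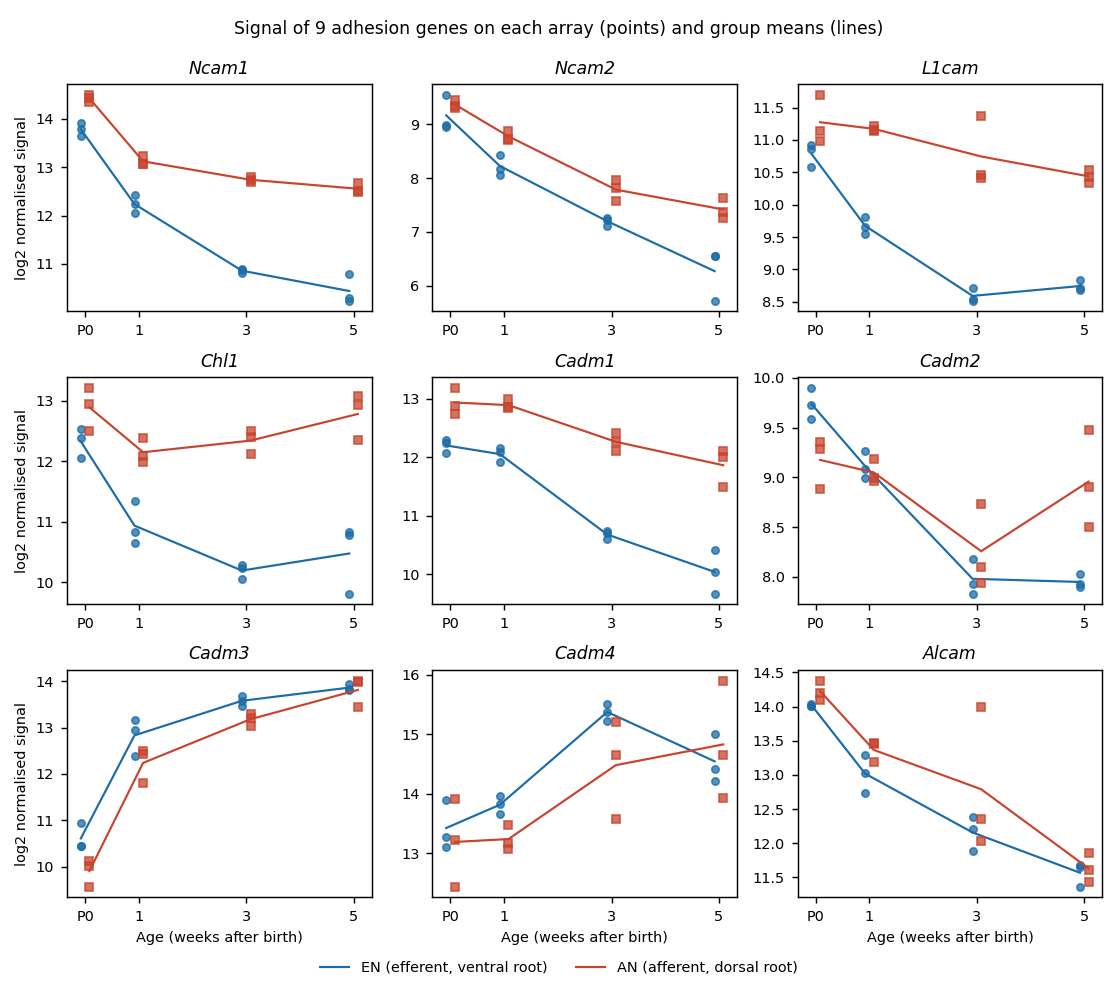
Each panel plots 1 gene, with age in weeks on the x axis and log2 normalised signal on the y axis. Circles are single EN arrays and squares are single AN arrays (3 per group), and lines join the group means. The AN line of Ncam1, L1cam, Chl1 and Cadm1 lies above the EN line at every age, and both lines of Cadm3 rise together.

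Ncam1 encodes the neural cell adhesion molecule of axons and immature Schwann cells. In EN it read 13.65, 13.93 and 13.78 at P0, 12.05, 12.24 and 12.43 at 1 W, 10.90, 10.87 and 10.81 at 3 W, and 10.29, 10.24 and 10.78 at 5 W. In AN it read 14.35, 14.50 and 14.44 at P0, 13.06, 13.07 and 13.24 at 1 W, 12.79, 12.69 and 12.74 at 3 W, and 12.50, 12.49 and 12.67 at 5 W. Every AN array lay above every EN array of the same age, and the gap widened with age as the level in EN fell further. AN exceeded EN by 0.64 (SE 0.13, 1.56-fold, adjusted p = 0.0295) at P0, by 0.89 (1.85-fold, adjusted p = 0.00164) at 1 W, by 1.88 (3.69-fold, adjusted p = 1.18e-07) at 3 W and by 2.12 (4.34-fold, adjusted p = 3.32e-08) at 5 W. The call at P0 was lost without AN replicate 2 (adjusted p = 0.164) or replicate 3 (adjusted p = 0.105) and without EN replicate 1 (adjusted p = 0.169) or replicate 3 (adjusted p = 0.0992), while the later calls held without any 1 array.

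Ncam2 encodes a relative of NCAM known from olfactory axons. Its EN arrays read 9.00, 8.96 and 9.55 at P0, 8.06, 8.18 and 8.44 at 1 W, 7.23, 7.25 and 7.12 at 3 W, and 6.55, 5.72 and 6.55 at 5 W. Its AN arrays read 9.35, 9.31 and 9.46 at P0, 8.72, 8.74 and 8.89 at 1 W, 7.82, 7.97 and 7.57 at 3 W, and 7.38, 7.25 and 7.62 at 5 W. The arrays of the 2 nerves overlapped at P0 and separated at each later age. The difference of 1.15 at 5 W (SE 0.20, 2.22-fold, adjusted p = 0.00141) passed the test, and those of 0.55 at 1 W (adjusted p = 0.16) and 0.59 at 3 W (adjusted p = 0.0912) did not. When AN and EN arrays of the same age and number were treated as pairs, both passed (adjusted p = 0.0282 and 0.0136).

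L1cam encodes the L1 protein that fasciculates axons. In EN it read 10.58, 10.86 and 10.92 at P0, 9.55, 9.81 and 9.66 at 1 W, 8.71, 8.52 and 8.55 at 3 W, and 8.71, 8.68 and 8.84 at 5 W. In AN it read 11.13, 11.70 and 10.99 at P0, 11.14, 11.16 and 11.22 at 1 W, 10.41, 10.45 and 11.38 at 3 W, and 10.54, 10.44 and 10.34 at 5 W. AN arrays stood above all EN arrays at each age, narrowly so at P0, where the difference of 0.49 had an adjusted p of 0.543. AN was 2.83-fold higher at 1 W (1.50, SE 0.21, adjusted p = 0.000722), 4.45-fold at 3 W (2.15, adjusted p = 6.46e-06) and 3.24-fold at 5 W (1.69, adjusted p = 5.75e-05). AN replicate 3 at 3 W stood above the other 2 arrays of its group, and without it the difference at 3 W was 1.84 (adjusted p = 4.89e-06).

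Chl1 encodes the close homologue of L1. In EN it read 12.39, 12.54 and 12.05 at P0, 10.64, 10.82 and 11.34 at 1 W, 10.23, 10.29 and 10.06 at 3 W, and 9.81, 10.78 and 10.83 at 5 W. In AN it read 12.95, 13.22 and 12.50 at P0, 12.08, 11.98 and 12.38 at 1 W, 12.50, 12.40 and 12.13 at 3 W, and 12.34, 13.07 and 12.93 at 5 W. The nerves overlapped at P0 and lay apart at all later ages, while the AN arrays of 5 W overlapped those of P0. AN exceeded EN by 1.21 at 1 W (SE 0.27, 2.32-fold, adjusted p = 0.0121), by 2.15 at 3 W (4.43-fold, adjusted p = 7.98e-05) and by 2.31 at 5 W (4.95-fold, adjusted p = 3.28e-05). The 0.56 at P0 did not pass (adjusted p = 0.666) except with arrays paired (adjusted p = 0.0153). The call at 1 W was lost without AN replicate 3 (adjusted p = 0.0715), EN replicate 1 (adjusted p = 0.0854) or EN replicate 2 (adjusted p = 0.0582).

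Cadm1 encodes the broadly expressed member of the nectin-like family. In EN it read 12.30, 12.24 and 12.07 at P0, 12.15, 12.09 and 11.92 at 1 W, 10.74, 10.71 and 10.60 at 3 W, and 10.04, 9.67 and 10.42 at 5 W. In AN it read 13.19, 12.87 and 12.74 at P0, 12.99, 12.85 and 12.83 at 1 W, 12.27, 12.11 and 12.41 at 3 W, and 12.10, 11.49 and 12.00 at 5 W. The nerves did not overlap at any age, and no change from P0 to 1 W passed the test in either nerve. The difference passed the test at 1 W (0.84, SE 0.18, 1.78-fold, adjusted p = 0.0103), 3 W (1.58, 2.99-fold, adjusted p = 3.06e-05) and 5 W (1.82, 3.53-fold, adjusted p = 5.51e-06). At P0 the 0.73 had an adjusted p of 0.0685, which became 0.00588 with arrays paired. Without AN replicate 1 the difference at 1 W was 0.79 (adjusted p = 0.0525).

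Cadm2 encodes a neuronal member of the same family. Its EN arrays read 9.72, 9.59 and 9.90 at P0, 9.08, 8.99 and 9.26 at 1 W, 7.83, 7.93 and 8.18 at 3 W, and 7.89, 7.92 and 8.03 at 5 W. Its AN arrays read 9.36, 9.29 and 8.88 at P0, 8.97, 8.99 and 9.19 at 1 W, 8.10, 7.94 and 8.73 at 3 W, and 8.50, 9.47 and 8.90 at 5 W. At P0 all EN arrays were above all AN arrays, at 1 W and 3 W the nerves overlapped, and at 5 W all AN arrays were above all EN arrays. AN minus EN was accordingly -0.56 (SE 0.22, adjusted p = 0.422) at P0 and 1.01 (2.01-fold, adjusted p = 0.00734) at 5 W. Without AN replicate 2, which read highest, the difference at 5 W was 0.75 (adjusted p = 0.0512).

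Cadm3, which encodes the axonal partner of CADM4, ran opposite to the 6 genes above. In EN it read 10.94, 10.44 and 10.44 at P0, 12.94, 13.17 and 12.38 at 1 W, 13.58, 13.48 and 13.68 at 3 W, and 13.95, 13.81 and 13.83 at 5 W. In AN it read 10.12, 10.02 and 9.57 at P0, 12.42, 12.50 and 11.79 at 1 W, 13.30, 13.22 and 13.03 at 3 W, and 14.01, 13.98 and 13.45 at 5 W. AN lay below EN at P0 and 3 W without overlap, and the nerves overlapped at 1 W and 5 W. None of the differences of -0.70 at P0 (adjusted p = 0.231), -0.59 at 1 W (adjusted p = 0.191), -0.40 at 3 W (adjusted p = 0.356) and -0.05 at 5 W (adjusted p = 0.932) passed. With arrays paired, those at P0 (adjusted p = 0.0155) and 1 W (adjusted p = 0.0186) did. Averaged over the 4 ages, AN was lower by 1.35-fold (-0.44, SE 0.11, adjusted p = 0.00936), a comparison in which 10.5% of all probes were called lower and 9.1% higher. Its second tested probe gave -0.18 for this average (adjusted p = 0.554), with 0.002 at P0 and -0.22 at 1 W.

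Cadm4 encodes the Schwann cell partner of CADM3 and had the widest spread between arrays. Its EN arrays read 13.27, 13.11 and 13.90 at P0, 13.66, 13.83 and 13.96 at 1 W, 15.38, 15.51 and 15.23 at 3 W, and 14.22, 14.42 and 15.00 at 5 W. Its AN arrays read 13.23, 12.44 and 13.91 at P0, 13.48, 13.07 and 13.17 at 1 W, 15.21, 14.65 and 13.59 at 3 W, and 13.93, 14.66 and 15.90 at 5 W. AN was below EN without overlap at 1 W and 3 W, yet no difference between the nerves passed the test. The nearest was -0.89 at 3 W (SE 0.44, adjusted p = 0.281, and 0.0498 with arrays paired), which was -0.44 (adjusted p = 0.704) without AN replicate 3, and the 95% interval at 5 W ran from -0.65 to 1.21, too wide to show equal levels.

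Alcam encodes the activated leukocyte cell adhesion molecule. Its EN arrays read 14.03, 14.02 and 14.01 at P0, 12.74, 13.03 and 13.29 at 1 W, 11.89, 12.38 and 12.21 at 3 W, and 11.37, 11.66 and 11.68 at 5 W. Its AN arrays read 14.20, 14.38 and 14.10 at P0, 13.19, 13.45 and 13.46 at 1 W, 12.36, 12.03 and 13.99 at 3 W, and 11.61, 11.85 and 11.44 at 5 W. The nerves overlapped at every age except P0, and no difference passed. The largest, 0.63 at 3 W (adjusted p = 0.295), rested on AN replicate 3, without which it was 0.03. At 5 W the difference was 0.06 with a 95% interval from -0.61 to 0.74.

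Counted together, 1 of 9 genes was called higher in AN at P0 (Ncam1), where 0.222% of all tested probes were. At 1 W and again at 3 W, 4 of 9 were called higher (Ncam1, L1cam, Chl1 and Cadm1), against 2.72% and 3.08% of all probes, and at 5 W 6 of 9 were, against 3.54%. Not 1 of the 9 was called lower by limma at any age, although 2 at P0 and 1 at 1 W were lower at an unadjusted p below 0.05. The median difference of the 9 genes was 0.21, 0.55, 0.63 and 1.15 at the 4 ages, beside 0.01, -0.07, -0.03 and -0.03 over all tested probes. Averaged over the 4 ages, 5 of 9 were called higher (Ncam1, Ncam2, L1cam, Chl1 and Cadm1), against 9.1% of all probes. In the same average 1 of 9 was called lower (Cadm3), which is near the 10.5% of all probes called lower. The members were chosen with earlier results of these data known, so these shares describe them and test nothing about the list.

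**Figure D2:**
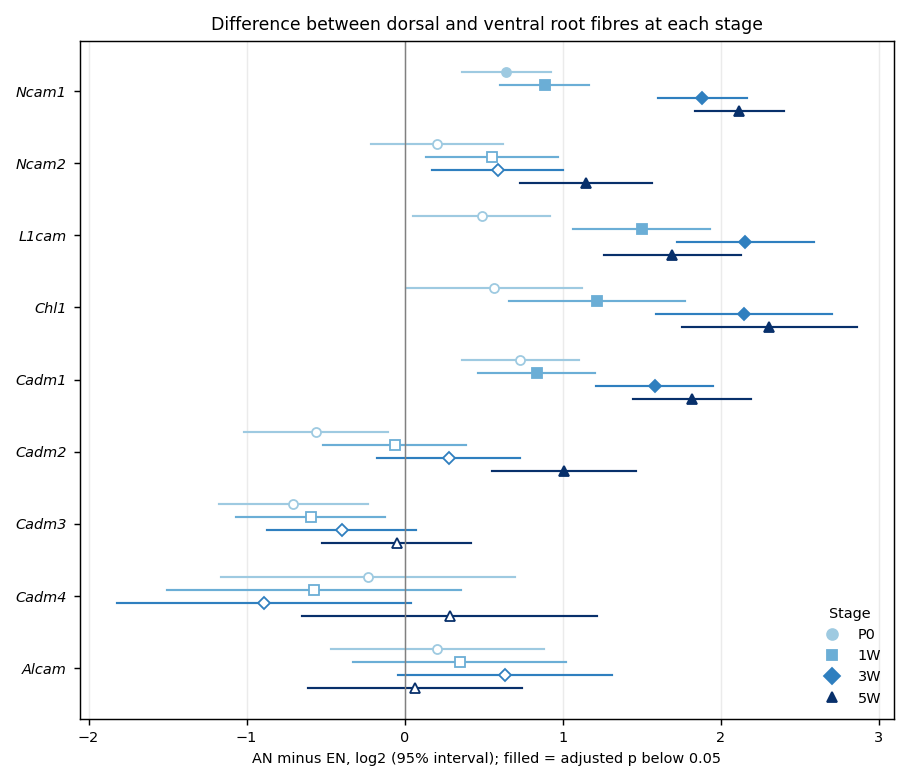
The x axis gives AN minus EN in log2 units with 95% intervals from limma, for 9 genes on the y axis and 4 ages by colour and symbol. Filled symbols have an adjusted p below 0.05. Ncam1 is filled at all 4 ages, Ncam2 and Cadm2 at 5 W only, and Cadm3, Cadm4 and Alcam at none.

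AN and EN arrays of the same age and number shared a slide and deviated together from their group means, and were treated as 12 pairs. At P0, replicates 2 and 3 of both nerves lay on the same slide. There the deviations correlated at 0.44 and 0.43 with the array of the same number. With arrays of another number r was at most -0.04 and -0.22. Whether the slide or the samples tied the pairs was not tested. Taken as pairs, AN was higher in 12 of 12 for Ncam1, L1cam, Chl1 and Cadm1, in 11 for Ncam2, 10 for Alcam, 7 for Cadm2, 3 for Cadm4 and 2 for Cadm3. With the pair as a block, 3 genes were called higher and 1 lower at P0, where 1.65% and 2.22% of all probes were. At 1 W the counts were 5 higher and 1 lower (5.11% and 6.03% of all probes), and at 3 W they were 5 higher and 1 lower (8.38% and 12.9%). At 5 W the same 6 genes were called as without the block, now against 10.7% of all probes. The genes gained are those for which a paired value is given above.

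Development was then followed in each nerve, where all comparisons with P0 share the same 3 arrays of P0. In EN, Ncam1 fell by 3.35 from P0 to 5 W (SE 0.13, 10.2-fold, adjusted p = 1.7e-12), Ncam2 by 2.90 (7.46-fold), Alcam by 2.45 (5.47-fold), Cadm1 by 2.16 (4.46-fold), L1cam by 2.04 (4.12-fold), Chl1 by 1.85 (3.61-fold) and Cadm2 by 1.79 (3.45-fold). Cadm3 rose by 3.25 (SE 0.22, 9.54-fold, adjusted p = 1.06e-09) and Cadm4 by 1.12 (SE 0.44, 2.17-fold, adjusted p = 0.0402). The P0 and 5 W arrays of EN did not overlap for any of the 9 genes.

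In AN, the fall from P0 to 5 W was 2.59 for Alcam (6.04-fold, adjusted p = 2.05e-06), 1.96 for Ncam2 (3.88-fold), 1.87 for Ncam1 (SE 0.13, 3.67-fold, adjusted p = 1.53e-09), 1.07 for Cadm1 (2.1-fold) and 0.84 for L1cam (1.78-fold, adjusted p = 0.00235). Chl1 and Cadm2 gave -0.11 (95% interval -0.67 to 0.45, adjusted p = 0.756) and -0.22 (95% interval -0.67 to 0.24, adjusted p = 0.421). Cadm3 rose by 3.91 (15-fold, adjusted p = 9.67e-11) and Cadm4 by 1.64 (3.11-fold, adjusted p = 0.00469). Cadm3 thus had the largest rise among the 9 genes in either nerve.

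**Figure D3:**
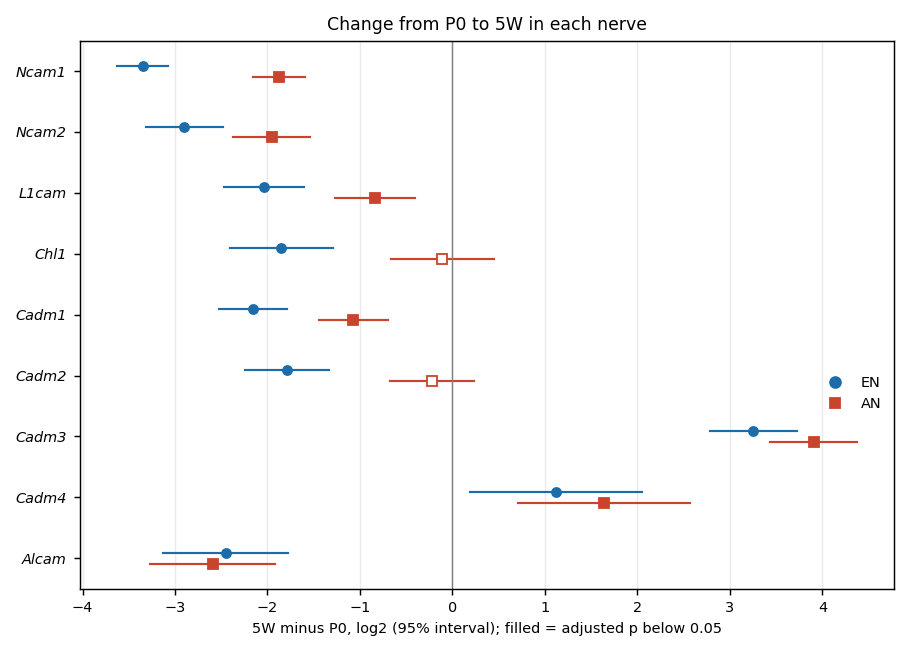
The x axis gives the change from P0 to 5 W in log2 units with 95% intervals, for EN (circles) and AN (squares), with the 9 genes on the y axis. Filled symbols have an adjusted p below 0.05. The falls of Ncam1, L1cam, Chl1, Cadm1 and Cadm2 are smaller in AN than in EN, whereas Alcam lies at nearly the same place in both.

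The counts by age differed between the nerves. In EN, 7 of 9 genes were called at 1 W against P0, 1 higher (15.8% of all probes) and 6 lower (11.4%), leaving out Cadm1 and Cadm4. At 3 W all 9 were called, 2 higher (29.1%) and 7 lower (26.1%), and likewise at 5 W, 2 higher (28.2%) and 7 lower (26%). In AN, Cadm3 was higher (12.4%) and Ncam1 and Ncam2 lower (9.34%) at 1 W. At 3 W in AN 2 were higher (26.9%) and 6 lower (25%), with Chl1 not called, and at 5 W 2 were higher (26.5%) and 5 lower (24.2%).

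Several of the smaller calls depended on single arrays. In EN, Cadm2 and Alcam at 1 W (adjusted p = 0.0386 and 0.0267) and Cadm4 at 5 W were lost without 1 array, with adjusted p of up to 0.136, 0.11 and 0.146. Cadm2 at 1 W was lost without P0 replicate 1 or 3 or 1 W replicate 1 or 2, Alcam without any 1 of the P0 arrays or 1 W replicate 1 or 2, and Cadm4 without P0 replicate 1 or 2 or 5 W replicate 2 or 3. In AN, Ncam2 at 1 W (adjusted p = 0.038) was lost without any 1 of the 6 arrays compared (adjusted p 0.0539 to 0.123). L1cam and Cadm4 at 3 W in AN were lost without P0 replicate 2 or 3 W replicate 1 or 2, with adjusted p of up to 0.223 and 0.119. For L1cam this change was -0.53 (adjusted p = 0.0391), and it was -0.32 without P0 replicate 2 and -0.84 (adjusted p = 0.000392) without 3 W replicate 3.

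With the slide as a block, the calls in AN at 3 W were lost for L1cam (adjusted p = 0.155), Cadm2 (adjusted p = 0.0603) and Cadm4 (adjusted p = 0.761), and those of Cadm4 in EN at 3 W (adjusted p = 0.228) and 5 W (adjusted p = 0.113). Further calls lost with this block were Cadm2 in EN at 1 W (adjusted p = 0.0774), Cadm4 from 1 W to 3 W in EN (0.43, adjusted p = 0.656) and AN (0.12, adjusted p = 0.908), Cadm2 over that step in AN (adjusted p = 0.0855) and Ncam2 from 3 W to 5 W in EN (adjusted p = 0.0854). All 6 arrays of 3 W lay on 1 slide, which held no array of P0 or 1 W and, of 5 W, only replicate 3 of each nerve. The step from 1 W to 3 W, and every comparison of 3 W with P0, therefore also compares arrays of different slides. The fit with the slide as a block ties 3 W to the other slides only through those 5 W arrays.

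Steps between neighbouring ages were tested in the same way. Between 1 W and 3 W, 8 of 9 genes were called in EN (27.5% of all probes) and 6 of 9 in AN (30%), of which 1 remained in AN under the study's own thresholds, since the other changes were under 2-fold. Between 3 W and 5 W, 1 of 9 was called in EN (2.26% of all probes), which was Ncam2 with a fall of 0.93 (SE 0.20, adjusted p = 0.0177), and 0 of 9 in AN by limma (3.73%), where 4 had an unadjusted p below 0.05. Among these 4, Alcam dropped by 1.16 (2.23-fold, adjusted p = 0.0528), which was called in 7 of 16 alternatives, left-out arrays included, and was -0.56 (adjusted p = 0.111) without 3 W replicate 3. Cadm2 in AN was called after 3 W without that array (0.94, adjusted p = 0.0219). Several calls of these steps rested on single arrays. In EN, Chl1 from 1 W to 3 W (-0.74, adjusted p = 0.0444) was lost without any array but 1 W replicate 1 (adjusted p 0.0688 to 0.183), and Cadm3 (0.75, adjusted p = 0.019) without 1 W replicate 3 or 3 W replicate 1 or 3 (adjusted p 0.0508 to 0.108). In AN that of Ncam1 (-0.38, adjusted p = 0.0379) was lost without any 1 of the 6 arrays compared (adjusted p 0.0597 to 0.134) and that of Cadm4 (1.24, adjusted p = 0.0417) without any but 3 W replicate 3 (adjusted p 0.0621 to 0.199). Without 3 W replicate 2, Cadm1 and Cadm2 were not called (adjusted p = 0.0566 and 0.0596), and without 3 W replicate 3, L1cam (-0.74, adjusted p = 0.00256) and Alcam (-1.17, adjusted p = 0.000157) were. The Ncam2 call in EN after 3 W was lost without 3 W replicate 1 (adjusted p = 0.0693) or 2 (adjusted p = 0.0938) or 5 W replicate 2 (adjusted p = 0.0941).

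Whether development differed between the nerves was tested directly, as the change of AN minus EN since P0. At 1 W the change was called for 0 of 9 genes by limma, and for 1 at an unadjusted p below 0.05. At 3 W it was called for Ncam1 (1.24, SE 0.19, adjusted p = 0.00476) and L1cam (1.66, SE 0.29, adjusted p = 0.0118), against 0.327% of all probes. Both calls held without any 1 array, with L1cam at 1.35 (adjusted p = 0.0074) without AN replicate 3 of 3 W. The printed L1cam probe gave 0.24 for the same change (adjusted p = 0.971).

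By 5 W the change was called for 4 of 9 genes, against 0.703% of all probes. It was 1.48 for Ncam1 (SE 0.19, adjusted p = 0.000844), 1.57 for Cadm2 (SE 0.31, adjusted p = 0.0153), 1.74 for Chl1 (SE 0.38, adjusted p = 0.0274) and 1.09 for Cadm1 (SE 0.25, adjusted p = 0.0407), while L1cam gave 1.21 (adjusted p = 0.0516). For each of these genes the group mean dropped further in EN than in AN. Ncam1 held without any 1 array, and Cadm2 was lost without AN replicate 3 of P0 (adjusted p = 0.0508). Chl1 was lost without AN replicate 3, EN replicate 1 or EN replicate 2 of P0 and without AN replicate 2 or EN replicate 1 of 5 W (adjusted p 0.0548 to 0.0837). Cadm1 was lost without 9 of the 12 arrays in turn (adjusted p 0.0564 to 0.117). The second probes of Chl1 and Cadm1 gave 1.89 (adjusted p = 0.109) and 0.71 (adjusted p = 0.318). With the pair as a block, 4 genes were called at 3 W, with Chl1 (adjusted p = 0.00127) and Cadm1 (adjusted p = 0.0172) added, against 1.61% of all probes, and 6 at 5 W, with Ncam2 (adjusted p = 0.0193) and L1cam (adjusted p = 0.0339) added, against 3.2%.

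The order of the 8 group means set the genes apart further. For Ncam1 it ran from AN at P0 down through EN at P0, AN at 1 W, AN at 3 W, AN at 5 W, EN at 1 W and EN at 3 W to EN at 5 W, so that AN at 5 W stood above EN at 1 W. Among the 7 pairs of neighbours in that order, only AN at 3 W and AN at 5 W had a 95% interval of the difference that held 0. L1cam and Chl1 likewise kept all 4 AN groups above EN at 1 W, with 5 and 6 of 7 neighbour intervals holding 0. For Cadm3 the order ran from 5 W down through 3 W and 1 W to P0, with EN above AN each time. In that order 4 of 7 neighbour pairs had an interval that held 0. Ncam2 and Cadm1 had 4 of 7 such pairs and Cadm2 had 5. For Cadm4 and Alcam, 7 of 7 neighbour intervals held 0. An interval that holds 0 does not show equal levels, and some were wide. For Alcam, EN at P0 minus AN at 1 W had an interval from -0.02 to 1.33.

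The other probes of a gene mostly bore the same sign. At 5 W, 5 of 5 Ncam1 probes and 3 of 3 Chl1 probes were called higher in AN, with differences of 1.73 to 2.12 for the 4 brighter Ncam1 probes and 2.30 to 2.35 for Chl1. The weakest Ncam1 probe was not above background on any EN array at 5 W, so its value carries no fold. The printed Ncam1 probe gave 1.73 (adjusted p = 4.52e-08) and the printed Chl1 probe 2.35 (adjusted p = 0.000811). At P0 only the brightest Ncam1 probe was called, 1 of 5, the others giving 0.27 to 0.50.

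Probes of L1cam disagreed in size. All 3 were called higher in AN at 1 W, but the printed probe gave 0.53 at 3 W (adjusted p = 0.207) and 0.29 at 5 W (adjusted p = 0.522), where the brightest gave 2.15 and 1.69. The third L1cam probe was not above background on any EN array from 1 W on and gives no fold. The fall from P0 to 5 W in EN was called for all 3 probes, with 0.68 for the printed one against 2.04 for the brightest, so the size of the L1cam changes depends on the probe and the cause of that was not tested.

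For Cadm1, 2 of 3 probes were called higher in AN at 1 W, 3 W and 5 W, the printed one by 1.45 at 5 W (adjusted p = 0.000171). The third, a dim probe at chr9:47600600-47600659, read 5.36 ± 0.53 in EN at P0 and 5.74 ± 0.76 at 5 W (mean ± SD, n = 3), above background on 2 of 3 arrays in each, and its 0.38 did not pass (adjusted p = 0.62). From P0 to 3 W it was called higher, by 1.52 in EN (adjusted p = 0.0393) and 2.37 in AN (adjusted p = 0.00299), where the brightest probe fell by 1.52 and 0.67, so the direction of the Cadm1 change to 3 W depends on the probe. From 1 W to 3 W in AN it gave 2.13 (adjusted p = 0.0123) against -0.63. The printed Ncam1 probe was called higher from 3 W to 5 W, by 0.46 in EN (adjusted p = 0.0393) and 0.59 in AN (adjusted p = 0.00622), where the brightest gave -0.42 and -0.19 without a call. For Cadm2 the second probe gave 0.69 at 5 W (adjusted p = 0.0663) and fell in EN by 1.71 (adjusted p = 2.79e-06). Both tested probes of Cadm3 rose and both of Alcam fell from P0 to 5 W in both nerves. Ncam2 had 1 tested probe of 2, and Cadm4 had a single probe.

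**Figure D4:**
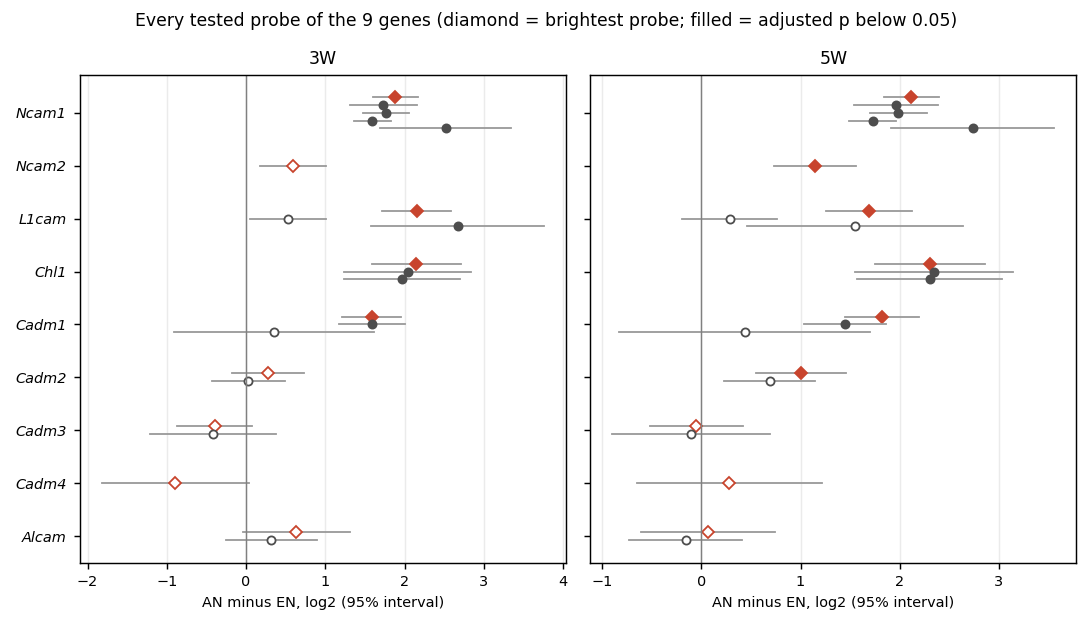
Each symbol is 1 tested probe, with AN minus EN in log2 units and its 95% interval on the x axis at 3 W (left) and 5 W (right), grouped by gene on the y axis. Diamonds are the brightest probe of a gene, circles the others, and filled symbols have an adjusted p below 0.05. The probes of Ncam1 and Chl1 cluster well to the right of 0, and those of L1cam are spread from near 0 to beyond 1. The lowest drawn Ncam1 and L1cam symbols are the dim probes described above, whose EN values at 5 W were not above background.

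The annotation of the array assigns the Ncam1 probes to different transcript variants, and these were set against each other on each array after their values had been seen. The brightest probe, at chr9:49310320-49310379 and assigned to variant 3, exceeded the probe of variant 2, at chr9:49323381-49323440, by 1.50 ± 0.198 at P0 (mean ± SD over the 6 EN and AN arrays, range 1.27 to 1.75) and by 0.63 ± 0.166 at 5 W (range 0.35 to 0.84). The P0 and 5 W arrays did not overlap. A second probe assigned to variant 3, at chr9:49313224-49313283, moved from 0.83 ± 0.253 to -0.18 ± 0.191 in the same way. The signal of the variant 3 probes thus fell further than that of the variant 2 probe in both nerves. These are changes of a ratio within an array, since levels of different probes cannot be compared.

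**Figure D5:**
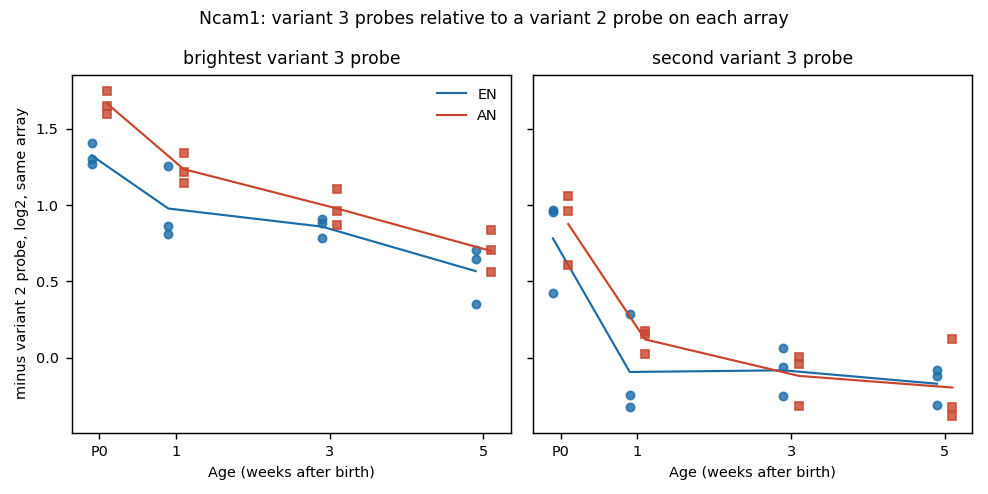
Age in weeks is on the x axis, and the y axis gives the log2 signal of a variant 3 probe of Ncam1 minus that of the variant 2 probe on the same array, for the brightest (left) and the second (right) variant 3 probe. Points are arrays (circles EN, squares AN) and lines join group means. On the left the 6 arrays of P0 lie between 1.27 and 1.75 and the 6 arrays of 5 W between 0.35 and 0.84.

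The genes whose course was most like that of each member are given as a description, by Pearson r over the 24 arrays among 17728 genes. All 24 arrays share the trend of development, which raises every such r. They were Ptprz1 (0.977) and Elovl2 (0.974) for Ncam1, Tmem132a (0.976) and Adamts17 (0.975) for Ncam2, Prdm8 (0.968) and Cntn1 (0.966) for L1cam, and Cdh2 (0.958) and Abca8b (0.940) for Chl1. Ptprz1 encodes a receptor phosphatase, Cntn1 the adhesion molecule contactin and Cdh2 N-cadherin. Cadm1 was most like Lgr5 (0.971) and Sppl3 (0.964), Cadm2 like Adarb2 (0.917) and Alk (0.902), Cadm3 like Cfap100 (0.994) and Tmbim1 (0.991), Cadm4 like Spg20 (0.931) and Gria3 (0.913), and Alcam like Mpped2 (0.980) and Smarca1 (0.976). Among the members themselves, Ncam1 had r = 0.917 with L1cam and Ncam2 and 0.908 with Cadm1, and -0.841 with Cadm3.

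A list of 27 partners and relatives was set beside them, of which 26 were tested. It held L1 family relatives, contactins, polysialyltransferases, ankyrins, band 4.1 proteins, membrane guanylate kinases, nectins and known binding partners. At 1 W, 3 W and 5 W, 3, 2 and 3 of the 26 were called higher in AN and 0 lower, beside 2.72%, 3.08% and 3.54% of all probes called higher, with medians of 0.03, 0.07 and 0.17. Cntn1, the contactin that L1 family proteins bind, was higher in AN by 2.35 at 1 W (adjusted p = 0.00523), 2.60 at 3 W (adjusted p = 0.00125) and 2.65 at 5 W (SE 0.43, 6.28-fold, adjusted p = 0.000821). It read 9.26 to 9.60 in EN and 11.59 to 12.68 in AN at 5 W, with no overlap. At 3 W it read 9.96 to 10.23 in EN and 11.78 to 14.17 in AN (SD 1.29), so the size of that difference is uncertain. Cntn2, another contactin, was called at 1 W, where it was above background on 1 of the 3 EN arrays. Of the others, Nectin1 was called at 1 W (0.44), a call lost without any 1 of the 6 arrays (adjusted p 0.0651 to 0.169). Epb41l3, a band 4.1 protein of the membrane skeleton, was called at 3 W (1.14), and gave 0.52 (adjusted p = 0.0661) without AN replicate 3 and an adjusted p of 0.093 to 0.128 without any 1 EN array. Ank3, the ankyrin of nodes, and Nectin3 were called at 5 W (0.46 and 0.72), Ank3 not without AN replicate 2 (0.32, adjusted p = 0.104) or without EN replicate 1 or 3 (adjusted p = 0.0537 and 0.0635). At P0, 1 of the 26 was called, Nfasc, which was lower in AN by 1.18 (adjusted p = 0.0331) where 0.505% of all probes were called lower. That call was lost without AN replicate 2 or 3 or EN replicate 1 or 3 (adjusted p 0.0793 to 0.207).

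From P0 to 5 W, 6 of the 26 partners rose and 12 fell in EN (28.2% and 26% of all probes), and 8 rose and 8 fell in AN (26.5% and 24.2%), with medians of -0.34 and -0.23 beside 0.04 and 0.03 over all probes. Nfasc, the L1 family protein of nodes and paranodes, rose by 2.63 in EN and 3.97 in AN. Prnp, the prion protein that binds NCAM, rose by 2.25 and 1.94, and Gfra1, a GDNF receptor that binds NCAM, by 2.13 and 2.87. Cntn1 fell in EN by 3.15 (adjusted p = 6e-06), and its -0.87 in AN did not pass (adjusted p = 0.101). Cntn2 fell in EN by 2.71, and Epb41l3 fell by 2.40 in EN and 1.81 in AN. St8sia2, which builds polysialic acid on NCAM, was above background on all 3 arrays at P0 and on 1 of 3 at 5 W in either nerve, and its fit gave -2.07 in AN, or -1.36 without 5 W replicate 3. Crtam, a binding partner of CADM1, was not above background on any array at 5 W in either nerve, so its signal was at least 1.98-fold lower in EN and at least 2.26-fold lower in AN than at P0. The change of AN minus EN since P0 was called for 0 of the 26 by limma.

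Markers of the cells in the samples were read in the same way, and in bulk RNA fewer cells of a type cannot be told apart from less RNA per cell. All 5 Schwann cell markers were above background in every group. In EN their summed signal was 126000 to 130000 at P0 and 331000 to 382000 at 5 W. In AN it was 99000 to 104000 and 358000 to 401000 (4 of 5 called higher and 1 lower at 5 W in both nerves). Of the 4 motor neuron markers, Chat and Slc18a3 were above background on all 24 arrays, Slc5a7 on 10 and Mnx1 on 0. Between the nerves, 0 of the 3 tested motor neuron markers were called at any age. Sensory neuron markers were called higher in AN for 0, 7, 2 and 1 of 8 at the 4 ages. Their summed signal in EN was 51900 to 62300 at P0 and 17300 to 34500 at 5 W, and in AN 43000 to 119000 and 37100 to 62800, with Isl1 below background in EN at 3 W and 5 W. From P0 to 5 W in EN, 7 of the 8 were called lower and 0 higher (median -4.64), beside 26% of all probes called lower. In AN 5 were called lower and 1 higher (median -3.30), beside 24.2% of all probes called lower. At 3 W the sum in AN was 65600, 36600 and 259000, the last on replicate 3. That array also read highest of its group for L1cam, Alcam, Cadm1 and Cadm2, and lowest for Ncam2, Chl1, Cadm3 and Cadm4. The part of sensory neuron RNA in the differences of L1cam, Chl1, Ncam1 and Cadm1 between the nerves was not tested.

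Immature Schwann cell markers were called higher in AN for 0, 0, 1 and 2 of 4 at the 4 ages. Their sum fell in EN from 42400 to 48100 at P0 to 8730 to 17800 at 5 W, and in AN from 41400 to 48900 to 14200 to 29100. Markers of dividing cells were called lower at 5 W than at P0 for 3 of 3 in both nerves, with sums of 20700 to 26700 and then 1400 to 2010 in EN, and 32600 to 44500 and then 1810 to 2260 in AN. Myelinating Schwann cell markers rose from P0 to 5 W for 3 of 6 in EN and 6 of 6 in AN. Astrocyte markers were called higher in AN for 0, 3, 0 and 3 of 4, and oligodendrocyte markers for 0, 1, 0 and 1 of 4. Of all probes, 0.222%, 2.72%, 3.08% and 3.54% were called higher. Fibroblast markers were called lower in AN for 0, 1, 3 and 2 of 4, and endothelial markers for 0, 1, 1 and 1 of 4. Of all probes, 0.505%, 1.31%, 2.84% and 3.28% were called lower. Schwann cell markers were called higher in AN for 0, 1, 2 and 2 of 5, and 1 was called lower at each age. Dividing-cell markers were called higher in AN for 2 of 3 at 3 W. Skeletal muscle markers were above background in every group, with sums from 1650 in AN at 1 W to 103000 in EN at P0. The part of these cells in the courses of the 9 genes was not tested.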

How the data were processed

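For each of the 24 arrays the authors deposited spot intensity from Agilent Feature Extraction 10.7.1.1, background-subtracted and detrended, with marks for outliers and for signal well above background. The authors also deposited 1 log2 table, quantile normalized in GeneSpring per their methods. Scanner values were used: log2 intensity without outlier spots, averaged per probe and quantile normalized over 56605 gene probes. Per array they correlated with the deposited log2 table at 0.999984 to 1. Array medians of signal lay between 45.4 and 191 where local background lay between 23 and 46, and 55.1% to 71.7% of spots exceeded background clearly, which limits precision at low signal. No spot was saturated.

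The 8 group means were fitted over 24 arrays with limma 3.58.1 in R 4.3.3 (16 residual degrees of freedom), testing the 36409 probes that 1 or more groups showed well above background on each of their 3 arrays. The test was tried on simulated data. Figures used Python 3.11.15 and matplotlib 3.10.9. Probe positions are mm9 coordinates of the scanner files. No genome of that build was used here.

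The study's methods give a p below 0.05, with no adjustment stated, and a fold above 2 as thresholds, which were an alternative, as were normexp background correction (offset 50), scaling to the 75th percentile, both filters on dim probes, blocks for replicate, slide and pair, array weights, second probes, 6-array fits and leaving out arrays. AN and EN arrays of 1 age and number shared a slide, and 12 of 12 pairs correlated in their deviations (0.106 to 0.665), so the numbers were used to pair the arrays. At 3 W, where all 6 arrays shared 1 slide, r was 0.19, 0.11 and 0.21. Whether the correlation came from the slide or from the samples was not tested. The pair block was added after seeing the data.

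All 9 members were named. Partner genes were named where called between the nerves or among the 3 largest rises or falls to 5 W, and 2 most similar genes per member. St8sia4 was named in addition, beside St8sia2. The members and lists were chosen with earlier results of these data known.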

Additional observations from a re-analysis of the deposited data

Results flagged for a closer look

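The development of 5 genes differed between the nerves by a test of the difference itself, the change of AN minus EN since P0 in limma. From P0 to 3 W the difference grew by 1.24 for Ncam1 (SE 0.19, adjusted p = 0.00476) and by 1.66 for L1cam (SE 0.29, adjusted p = 0.0118). From P0 to 5 W it grew by 1.48 for Ncam1 (SE 0.19, adjusted p = 0.000844), by 1.74 for Chl1 (SE 0.38, adjusted p = 0.0274), by 1.09 for Cadm1 (SE 0.25, adjusted p = 0.0407) and by 1.57 for Cadm2 (SE 0.31, adjusted p = 0.0153), all in log2 units. Of these, the values of Chl1, Cadm1 and Cadm2 at 5 W lost the call when some single arrays were left out. The second probe of L1cam gave 0.24 to 3 W (adjusted p = 0.971), and those of Chl1 and Cadm1 gave 1.89 (adjusted p = 0.109) and 0.71 (adjusted p = 0.318) to 5 W.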

How the results depend on the processing

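No called value of a member changed its sign under these alternatives, which used the brightest or second probe. Outside them, the third Cadm1 probe was called in the opposite direction for 3 W against P0 (1.52 in EN, 2.37 in AN). Over 13 settings other than leaving out arrays, 1599 of 1728 member values kept their call, 64 lost and 65 gained it, and over 24 left-out arrays 1210 of 1296 kept it, 73 lost and 13 gained it. The count of 1 at P0 between AN and EN was 2 with normexp, with only probes above background on all 24 arrays or with array weights, 3 with the slide as a block, and 0 with 75th percentile scaling, the study's thresholds, the second probes or only the 6 arrays of the stage. At 1 W it was 2 of 4 under the study's thresholds, and at 5 W the count of 6 was 3 with the second probes, where Ncam2 had none tested, and 2 with only 6 arrays. For 1 W against P0 in AN, the count of 3 was 5 with normexp or array weights, and for 3 W against P0 in AN the count of 8 was 5 with the slide block or the study's thresholds. The change of the difference from P0 to 5 W gave 2 of 4 with the second probes. From 1 W to 3 W in AN the count of 6 was 1 under the study's thresholds, 4 with 75th percentile scaling, the slide block or the second probes, and 8 with array weights. From 3 W to 5 W the count of 1 in EN ran from 0 (slide block, study's thresholds, second probes) to 3 (array weights), and the 0 in AN up to 2. The cause was not tested.

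With replicate number as a block the count at P0 was 2, by a gain of Cadm1 (adjusted p = 0.041), and with the pair as a block it was 4. The pair block also took the change of the difference from P0 to 3 W from 2 to 4. The replicate block took 3 W to 5 W from 1 to 2 in EN (Cadm1 gained, adjusted p = 0.0432) and from 0 to 2 in AN (Alcam 0.0374, Cadm3 0.0362). These blocks moved no other count of called members by over 1.5 times.

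Leaving out 1 array gave 0 to 1 called genes between the nerves at P0, 3 to 4 at 1 W, 4 at 3 W and 5 to 6 at 5 W. It gave 5 to 7, 9 and 8 to 9 in EN against P0 at 1 W, 3 W and 5 W, 2 to 3, 6 to 9 and 7 in AN, 2 to 7 and 6 to 8 for 1 W to 3 W in AN and EN, 0 to 1 and 0 to 3 for 3 W to 5 W, and 1 to 4 for the change to 5 W, where the 1 was without AN replicate 3 of P0.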
